A study of Mus musculus with 12 samples.

Results

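The regions described here are the ESRRB-bound regions of mouse embryonic stem cells that lie in gene deserts, with a centre more than 100 kb from the span of every protein-coding gene of the RefSeq annotation (GRCm38.p6, the assembly that mm10 names). Of 86201 regions in the deposited count table, 8533 (9.9%) met this rule, and mitochondrial regions were left out. The rule used position alone and no count. ESRRB occupancy came from ChIP-seq (chromatin immunoprecipitation followed by sequencing), which counts DNA fragments pulled down with an antibody to ESRRB. The study had 12 samples from 2 lines, and the 6 ESRRB ChIP libraries, 3 per line, were compared here, while the 6 input libraries were not used. Both lines are Nanog-null embryonic stem cells that carry Esrrb, and 1 of them also carries Nanog. They are labelled NanogKO:Esrrb, called "without Nanog" here, and NanogKO:Esrrb:Nanog, called "with Nanog". All cells grew untreated in serum with leukaemia inhibitory factor, the cytokine that holds mouse embryonic stem cells in self-renewal. Every sample carries the same cell line label, N{delta}:cE:iN, and how each transgene is driven is not stated there. The labels do not tell separate cultures from repeat libraries of 1 culture, so a p-value here measures spread between libraries that may be technical only.

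ESRRB is an orphan nuclear receptor that binds DNA at an extended form of the nuclear receptor core motif and acts in the pluripotency network with NANOG, a homeodomain transcription factor, and with SOX2 and KLF proteins. Gene deserts are long stretches without protein-coding genes. Those beside developmental regulators are known to hold enhancers, elements that raise transcription of a gene from a distance, and long noncoding RNAs (lncRNAs) often start at such elements.

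Sequence was at hand only as windows from 250 bases before to 50 bases after a RefSeq start on GRCm38.p6. Windows of lncRNAs that overlap a gene-desert region are described here, and the start itself may lie outside the region. There were 95 such windows, of 86 lncRNA genes, over 85 tested gene-desert regions. They are shown for Gm33388, which starts in 1 of the 10 strongest regions; for Gm52029, whose region rose with Nanog; for C330004P14Rik, in the strongest region of the interval between Nmbr and Cited2; and for Gm46796 and Gm30085, which hold the extended ESRRB motif. These were chosen after their values were seen. Capitals mark the core motif AAGGTCA, or TGACCTT on the other strand, and where it is extended the whole of TCAAGGTCA or TGACCTTGA, each of which contains the core. Each sequence reads 5′ to 3′ on the strand of its gene.
Gm33388 (chr1:119305493-119305792, plus strand): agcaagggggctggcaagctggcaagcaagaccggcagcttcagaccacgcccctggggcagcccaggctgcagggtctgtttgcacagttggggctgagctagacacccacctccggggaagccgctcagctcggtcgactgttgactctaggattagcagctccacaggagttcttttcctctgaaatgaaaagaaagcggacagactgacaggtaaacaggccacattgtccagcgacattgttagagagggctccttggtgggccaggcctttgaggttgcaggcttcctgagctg
Gm52029 (chr13:47855909-47856208, minus strand): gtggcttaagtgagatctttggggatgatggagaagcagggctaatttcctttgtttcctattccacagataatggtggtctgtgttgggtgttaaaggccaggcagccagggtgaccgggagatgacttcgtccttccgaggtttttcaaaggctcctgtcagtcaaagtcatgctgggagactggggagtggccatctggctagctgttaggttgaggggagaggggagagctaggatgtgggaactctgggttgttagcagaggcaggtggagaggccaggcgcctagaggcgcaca
C330004P14Rik (chr10:15791527-15791826, plus strand): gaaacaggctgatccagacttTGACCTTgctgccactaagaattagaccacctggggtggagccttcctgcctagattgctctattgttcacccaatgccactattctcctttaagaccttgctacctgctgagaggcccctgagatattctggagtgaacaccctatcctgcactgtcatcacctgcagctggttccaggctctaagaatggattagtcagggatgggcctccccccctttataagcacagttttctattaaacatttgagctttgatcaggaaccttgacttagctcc
Gm46796 (chr3:6106767-6107066, plus strand): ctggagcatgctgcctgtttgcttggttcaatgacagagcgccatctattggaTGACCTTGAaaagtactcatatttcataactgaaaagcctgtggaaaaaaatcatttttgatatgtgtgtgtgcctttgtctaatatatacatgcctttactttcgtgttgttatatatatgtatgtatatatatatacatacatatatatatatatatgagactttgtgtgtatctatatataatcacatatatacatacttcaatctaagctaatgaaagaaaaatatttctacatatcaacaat
Gm30085 (chr15:93001260-93001559, plus strand): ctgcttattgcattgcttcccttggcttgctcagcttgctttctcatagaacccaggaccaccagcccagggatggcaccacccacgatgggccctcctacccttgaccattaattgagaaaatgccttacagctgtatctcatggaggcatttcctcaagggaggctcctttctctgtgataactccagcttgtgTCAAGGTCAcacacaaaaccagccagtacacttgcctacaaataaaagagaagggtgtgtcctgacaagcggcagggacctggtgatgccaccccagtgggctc
The windows of Gm33388 and Gm52029 hold no match to these letters. The core motif, searched on both strands, was in 18 of the 98 lncRNA windows that touch a gene-desert region, counting untested regions (18.4%). It was in 11.5% of 1404 lncRNA windows touching another region, in 4.99% of 10085 touching none and in 4.72% of all 32817 windows of the same length. Among windows lying wholly inside a region, the shares were 5 of 29 (17.2%) in gene deserts and 68 of 406 (16.7%) elsewhere. The extended motif was in 2.04%, 1.14%, 0.496% and 0.424% of the same first 4 sets. The octamer ATTTGCAT of POU factors and the SOX motif CATTGTT, neither of which overlaps the ESRRB motif, were in 3 and 8 of the 98 windows (3.06% and 8.16%), against 1.74% and 3.78% of all windows. In lncRNA windows touching another region the octamer and SOX shares were 2.14% and 2.99%, and in those touching none 1.82% and 4.97%. A match is a description of the letters and not a binding site.

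Gene-desert regions were sparse. Gene deserts, as cut by the rule, took up 737.8 Mb, 28.4% of the span between the first and last genes of the chromosomes, and held 11.5 regions per Mb. Intergenic sequence within 100 kb of a gene held 40.0 per Mb and gene bodies 43.0 per Mb. The median gene-desert region lay 221 kb from the nearest gene (quartiles 143 and 379 kb), 1439 (16.9%) lay more than 500 kb away, 389 (4.56%) more than 1000 kb, and the farthest 2205 kb. Just outside the rule, a region 99999 bp from Tmprss15 had 22.4 CPM (counts scaled to library size) without Nanog and 19.8 with Nanog. Just inside it, a region 100010 bp from Cbln4 had 19.3 and 17.2.

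The regions were slightly narrower than the whole table (median 328 against 350 bp) and had like levels, with a median CPM of 6.47 without and 6.14 with Nanog against 6.82 and 6.59 over all tested regions. They made up 70 of the 848 regions in the strongest percent (8.25%), and 9.95% of all tested regions. Centres of 1460 (17.1%) lay inside a lncRNA gene and those of 6928 (81.2%) in no annotated gene. Of the members, 3210 (37.6%) were in the deposited peak lists of both lines, 5245 (61.5%) in that with Nanog alone and 78 in that without Nanog alone. The same shares over the whole table were 37.8%, 61.4% and 0.806%. Libraries with Nanog held more counts in regions (6689166 to 8382646) than those without (2734338 to 5193707), and the part of depth in the peak lists was not tested.

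ESRRB signal in gene deserts went both ways between the lines, in nearly equal numbers. Of 8448 regions that passed the filter on low counts, 943 (11.2%) were higher with Nanog and 1012 (12.0%) lower, by edgeR's quasi-likelihood test with Benjamini-Hochberg adjustment over all tested regions at a threshold of 0.05. Over all 84892 tested regions these shares were 9.42% and 9.78%, or 19.2% in either direction, against 23.1% of the gene-desert regions. In intergenic regions nearer than 100 kb, 8.53% were higher and 11.5% lower, and inside genes 9.76% and 8.06%. The differences between these shares were not tested. Upper quartile scaling gave 1026 higher and 908 lower, so which direction was the more frequent depends on the scaling. The other 85 members were removed by the filter. The median log2 fold change, with over without Nanog, was -0.06 in gene deserts (quartiles -0.40 and 0.35), against -0.01 over all tested regions, -0.05 in nearer intergenic regions and 0.02 inside genes.

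**Figure D1:**
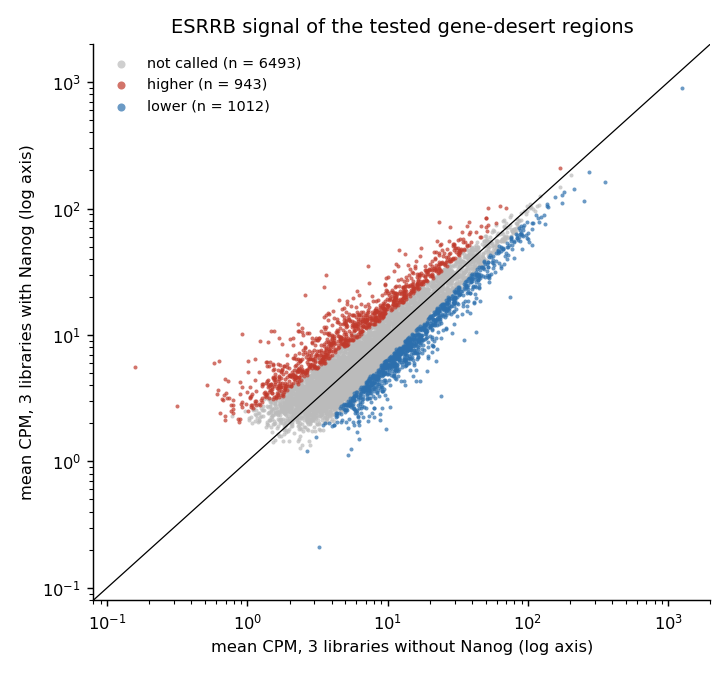
Mean CPM of each of the 8448 tested gene-desert regions without Nanog (x axis, log scale) and with Nanog (y axis, log scale), 3 libraries each, coloured by the edgeR call. The 943 regions higher with Nanog lie above the line of equal level and the 1012 lower ones below it, and most regions in grey lie along it.

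Changes of at least 2-fold were more often increases, but not among regions in both peak lists. There were 475 called increases and 228 called decreases of that size in gene deserts, 5.62% and 2.70% of those tested, against 4.38% and 2.09% over all tested regions. Regions in the list with Nanog alone gave 447 of these increases and 32 of these decreases. Regions in both lists gave 28 and 149, and those listed without Nanog alone gave 0 and 47. Called increases had a median log2 fold change of 1.00 and called decreases one of -0.80. The directions fell differently over the peak lists. Of the 943 increases, 682 were in the list with Nanog alone, a class of 5160 tested regions with a median CPM of 4.43 without and 4.48 with Nanog. Of the 1012 decreases, 820 were among regions in both lists, whose median CPM was 15.3 and 13.7 and whose median log2 fold change was -0.27. Of the 78 regions listed without Nanog alone, 61 were called lower and none higher. The peak lists come from the same libraries, so these counts are not independent of the lists. The libraries of the lines did not overlap in 1804 of the 1955 called regions. Called regions without overlap made up 21.4% of the gene-desert regions and 17.9% of all tested regions. Regions without overlap, called or not, made up 36.2% (3061) and 33.8%.

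Beyond 500 kb from a gene, decreases outnumbered increases, as they also did in intergenic regions within 50 kb of a gene. From 100 to 200 kb, 11.6% of 3792 tested regions were higher and 11.4% lower. From 300 to 500 kb the shares were 11.2% and 10.7%. From 500 to 1000 kb they were 10.4% and 15.5% of 1042 regions, and beyond 1000 kb 9.33% and 15.5% of 386, which is 36 higher and 60 lower. The median log2 fold change was -0.03 from 100 to 200 kb, -0.14 from 500 to 1000 kb and -0.15 beyond 1000 kb, and the median CPM with Nanog was 6.21, 6.02 and 6.56. Beyond 500 kb in all, 144 were higher and 221 lower. That excess depended on single libraries. Without library B without Nanog the counts were 184 and 186, and beyond 1000 kb they turned to 47 higher and 44 lower. Without library A with Nanog they were 117 and 133, and beyond 1000 kb 30 and 31. Regions of 50 to 100 kb, just short of the rule, were 11.3% higher and 12.1% lower. Closer to genes the shares were 9.75% and 12.8% from 10 to 50 kb, and 6.50% and 10.1% up to 10 kb outside a gene.

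**Figure D2:**
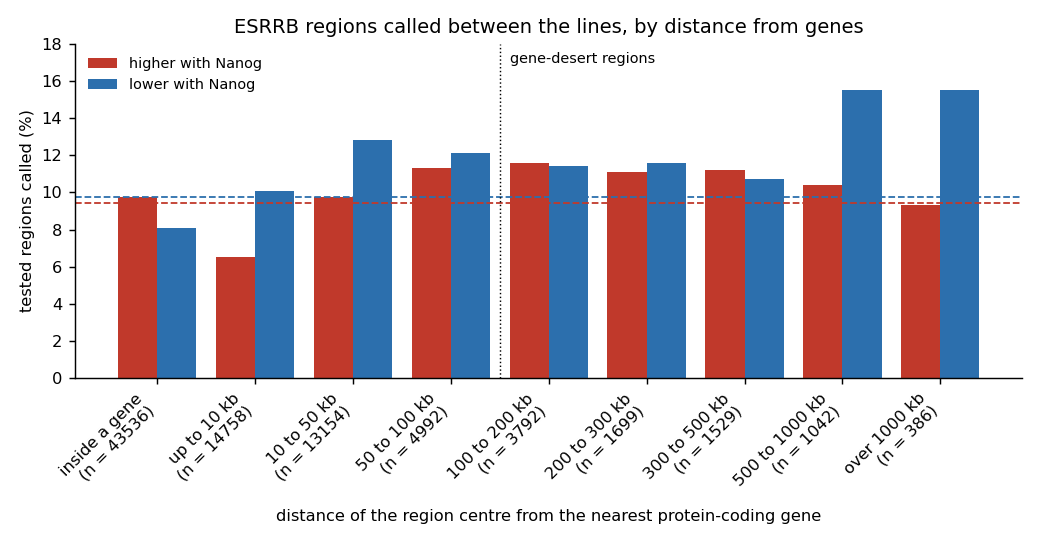
Share of tested regions called higher (red) and lower (blue) with Nanog, by distance of the centre from the nearest protein-coding gene, with the number tested under each pair of bars and dashed lines at the shares over all regions (9.42% and 9.78%). Bars right of the dotted line are gene-desert regions, and the last pairs show 15.5% lower against 10.4% and 9.33% higher.

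The share called rose with signal in every compartment. When all tested regions were split into 4 equal groups by level, in the highest 38.0% of 1942 gene-desert regions were called, 16.6% higher and 21.3% lower, beside 32.4% of nearer intergenic regions and 30.5% of those inside genes. In the lowest group 12.1%, 10.1% and 9.90% were called. Summed over all members, gene deserts took 9.25%, 10.0% and 9.44% of the counts without Nanog (libraries A, B and C in this order, as everywhere here), and 9.02%, 9.57% and 9.54% with Nanog. These overlapped, with means of 9.57% ± 0.40 (SD, n = 3) and 9.38% ± 0.31 (SD, n = 3) and a difference of -0.192 percentage points, which was 0.032 when library B without Nanog was left out. No test was run on this share.

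The 12 largest increases started from 1.48 to 7.20 CPM without Nanog and reached 10.4 to 35.1 CPM with it. Named regions here are the 12 largest increases and 12 largest decreases among the 1238 called regions that had libraries without overlap and a level no lower than the median, with 1 per interval between neighbouring protein-coding genes. The largest increase lay between Hpgds, a prostaglandin D synthase, and Qrfprl (chr6:65270646-65271182). It had 4.47, 4.49 and 1.96 CPM without Nanog and 26.2, 30.0 and 33.8 with Nanog, a log2 fold change of 3.14 ± 0.24 (SE; edgeR adjusted p = 3.09e-10). All libraries with Nanog were more than 5 times above the highest without.

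Some of the 12 largest increases lay in intervals flanked by regulators of development, and so did some of the 12 largest decreases. Between Arrdc4 and Nr2f2, an orphan nuclear receptor of mesoderm and neural tissue, a region (chr7:68909631-68910222) had 2.61, 1.96 and 3.14 CPM without Nanog and 16.6, 22.9 and 22.8 with Nanog, a log2 fold change of 2.97 ± 0.26 (SE; edgeR adjusted p = 3.37e-09). The lines were apart by over 5 times, and the region lay 160.7 kb from Arrdc4 and 1442 kb from Nr2f2. The interval held 12 tested regions, of which 4 were higher and 1 lower, and the median log2 fold change was 0.17. A region 130.1 kb from Shh, the Sonic hedgehog ligand, inside the lncRNA 9530036O11Rik (chr5:28597047-28597444), had 2.98, 0.28 and 1.18 CPM without Nanog and 10.2, 10.4 and 11.6 with Nanog. Its log2 fold change was 2.99 ± 0.36 (SE; edgeR adjusted p = 7.84e-07), and the lines did not overlap. The other 9 increases ran from 2.82 down to 2.02 on the log2 scale. They included regions 520.8 kb from Rgma, a repulsive guidance molecule that acts as a BMP co-receptor, and 100.4 kb from Ccnd2, cyclin D2. Another lay between Tle4, a Groucho-type co-repressor, and Psat1, and was nearer to Psat1 (409.4 kb). All 12 were in the peak list with Nanog alone.

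The 12 largest decreases started from higher levels, 13.1 to 42.8 CPM without Nanog, and came down to 3.27 to 10.5 CPM with it. Between Adgrl3, an adhesion receptor of the latrophilin family, and Tecrl a region (chr5:82005935-82006401) had 20.9, 24.7 and 26.9 CPM without Nanog and 4.23, 1.77 and 3.82 with Nanog. The log2 fold change was -2.92 ± 0.24 (SE; edgeR adjusted p = 1.20e-09). A neighbouring region (chr5:82004898-82005205) was also lower, at 16.0, 19.9 and 21.4 CPM against 6.27, 3.89 and 5.48. Beside Adgrb1, a brain adhesion receptor, a region (chr15:74375024-74375737) had 40.3, 39.0 and 49.2 CPM without and 11.1, 8.14 and 12.4 with Nanog, a log2 fold change of -2.04 ± 0.17 (SE; edgeR adjusted p = 1.27e-09). Between Auts2, a gene of neurodevelopment, and Castor2 a region (chr5:133073394-133073820) had 34.7, 35.6 and 34.9 CPM against 9.62, 7.08 and 10.7, -1.94 ± 0.18 (SE; edgeR adjusted p = 4.84e-09). In each of these 4 regions every library without Nanog was above every library with Nanog, by over 2.5 times. The other decreases, -2.02 to -1.57 on the log2 scale, included regions in intervals flanked by Sox9, Negr1, Pou3f1, Epha6 and Tmeff2. In the Sox9 and Pou3f1 intervals the region was nearer to the gene on the other side, Gm11677 (478.4 kb) and Rragc (343.3 kb). Of the 12, 9 were in both peak lists and 3 in that without Nanog alone.

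**Figure D3:**
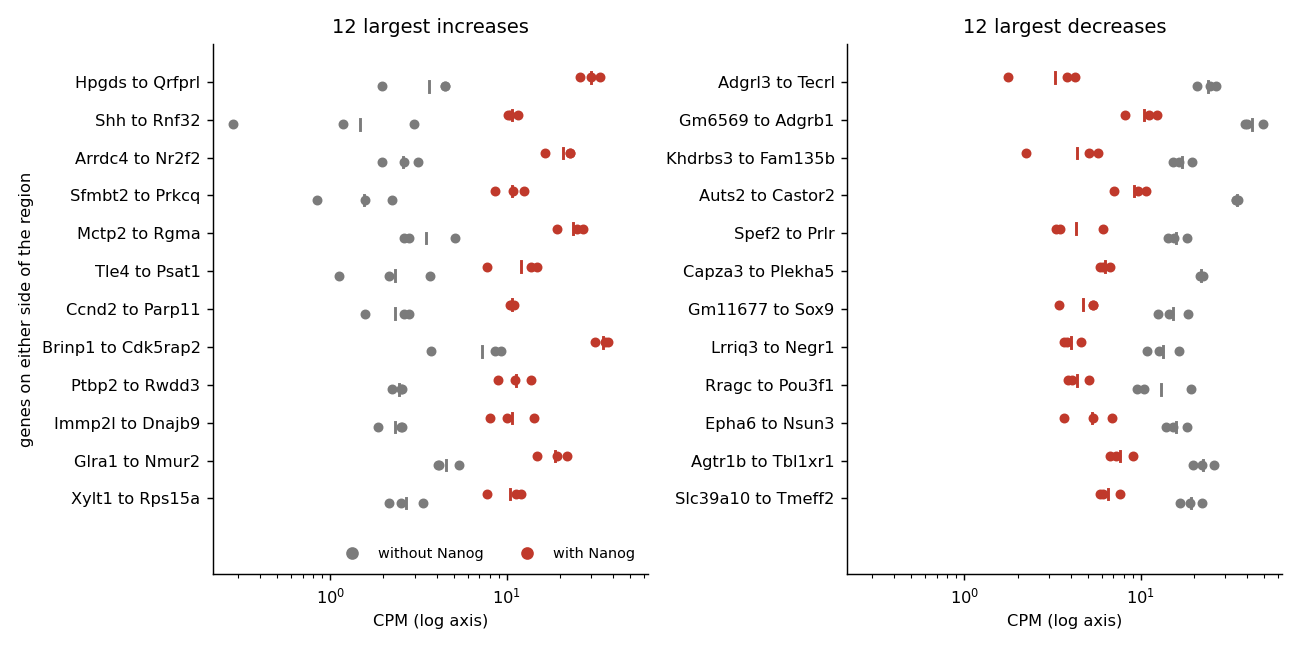
CPM (log axis) in each of the 6 ChIP libraries for the 12 largest increases (left) and 12 largest decreases (right) among gene-desert regions, named by the genes on either side, with vertical ticks at the means of 3 libraries. Grey points (without Nanog) and red points (with Nanog) do not overlap in any row, as the rule for these rows requires.

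Apart from 3 multi-copy or repeat-like regions described further on, the gene-desert regions with the most ESRRB signal lay beside Sox2. Sox2 encodes a pluripotency factor and lies next to a gene desert that holds a distal enhancer cluster known to control it in embryonic stem cells, the Sox2 control region. In the interval from Sox2 to Atp11b there were 31 tested gene-desert regions, 4 higher and 2 lower. The region 108.7 kb beyond the gene (chr3:34759860-34762371) had 302, 246 and 275 CPM without Nanog and 211, 172 and 202 with Nanog, a log2 fold change of -0.49 ± 0.09 (SE; edgeR adjusted p = 0.000362). Its neighbour at 104.8 kb (chr3:34755933-34758549) had 207, 177 and 220 CPM without and 185, 178 and 194 with Nanog. The libraries of that neighbour overlapped, and its log2 fold change of -0.12 ± 0.09 (SE) was not called (edgeR adjusted p = 0.397). Farther out the interval held pairs of close regions that were both higher, at 497.0 and 500.6 kb and at 688.3 and 689.5 kb. The first pair (chr3:35149181-35149675 and chr3:35152844-35153217) had 12.6 ± 1.85 and 4.88 ± 2.37 CPM without and 18.4 ± 0.969 and 10.2 ± 1.10 with Nanog (SD, n = 3). A region at 785.4 kb (chr3:35437557-35438140) was lower, at 32.0 ± 2.72 and 23.6 ± 3.93 CPM (SD, n = 3).

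**Figure D4:**
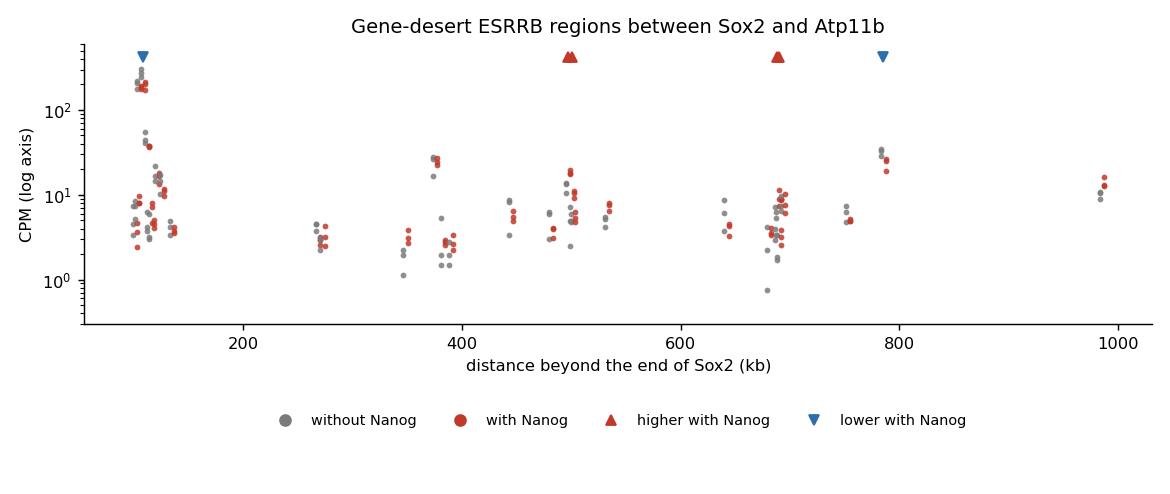
CPM (log axis) in each ChIP library of the 31 tested gene-desert regions between Sox2 and Atp11b, against distance beyond the end of Sox2 in kb, with points of the lines set slightly apart and triangles over called regions. The strongest regions stand at 104.8 and 108.7 kb, at 172 to 302 CPM, the latter lower with Nanog, and the triangles farther out mark 4 higher regions and 1 lower one.

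Of the other 5 regions among the 10 with the highest level, 3 were lower with Nanog, 1 was higher and 1, between Spring1 and Med13l, was not called (-0.19 ± 0.10, SE; edgeR adjusted p = 0.173). A region between Rnd3 and Tas2r134 (chr2:51447260-51448750) had 229, 208 and 199 CPM without and 144, 141 and 141 with Nanog, a log2 fold change of -0.58 ± 0.09 (SE; edgeR adjusted p = 3.26e-05). The region between Gli2, a transcription factor of hedgehog signalling, and Inhbb in which Gm33388 starts (chr1:119304647-119306365) had 199, 146 and 181 CPM without and 137, 115 and 133 with Nanog. Its log2 fold change was -0.45 ± 0.11 (SE; edgeR adjusted p = 0.00276). A region between Abca1, a cholesterol transporter, and Slc44a1 (chr4:53337608-53341006), nearer to Slc44a1 (101.1 kb), went the other way. It had 151, 187 and 167 CPM without and 210, 207 and 206 with Nanog, a log2 fold change of 0.30 ± 0.09 (SE; edgeR adjusted p = 0.0211). Libraries of the lines did not overlap in any of these 3. An offset fitted by loess on signal brought the Gli2 region to -0.24 and one between Cntn5 and Jrkl from -0.42 to -0.20, neither of which was then called, and the Abca1 call was lost when any of 5 libraries was left out and by DESeq2.

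The region with the highest level of all overlaps a ribosomal RNA pseudogene, Rn18s-rs5 (chr17:39843002-39848883), and had 1210, 1430 and 1110 CPM without and 869, 945 and 875 with Nanog. Ribosomal DNA is present in many copies, so reads from other copies may be counted there. Its log2 fold change of -0.48 was 0.004 with the loess offset. Another pair of strong regions lies at a locus known to collect artefact signal in mouse sequencing data. These regions, 1031.0 and 1035.1 kb from the nearest gene, in the interval from Lrrc4c to Iftap (chr2:98662397-98662890 and chr2:98666424-98667157), had 253 ± 79.8 and 357 ± 112 CPM without and 115 ± 12.2 and 162 ± 18.7 with Nanog (SD, n = 3), log2 fold changes of -1.12 and -1.13. Both were in the peak list without Nanog alone. The 4 mitochondrial regions of the table, which are also multi-copy, moved alike, from -1.31 to -1.24, and whether this bears on the pair was not tested. Without these 3 regions the difference in the share of counts was -0.127 percentage points, and 943 regions were higher and 1009 lower.

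Gene-desert regions in intervals flanked by pluripotency genes were called about as often as gene-desert regions in general. Of the 8 with the smallest adjusted p, 4 in each of 2 lists, 7 were higher with Nanog and the other was the Sox2 region above. Those 8 were picked by that value, so their tally does not describe the lists. Gene lists were read through the genes that flank an interval, and 6 intervals flanked by 5 of 15 naive pluripotency genes held 59 tested gene-desert regions. Of these, 10 (16.9%) were higher, 4 (6.78%) lower and 45 not called, with a median log2 fold change of 0.11, against 11.2%, 12.0% and -0.06 of all gene-desert regions. The share called in either direction, 23.7%, was near the 23.1% of all gene-desert regions. The strongest call lay between Klf5, a Krüppel-like factor of naive pluripotency, and Klf12 (chr14:99509817-99510774), at 30.2, 38.1 and 41.4 CPM without and 72.0, 71.1 and 73.1 with Nanog. Its log2 fold change was 0.96 ± 0.13 (SE; edgeR adjusted p = 2.68e-06), and a region nearer to Klf5 (chr14:99457635-99458249) rose from 8.23 ± 1.57 to 16.3 ± 1.86 CPM (SD, n = 3). Beside Tbx3, a T-box factor of the same network, a region (chr5:119309707-119310881) had 26.5, 18.5 and 24.5 CPM without and 40.0, 47.2 and 42.4 with Nanog (edgeR adjusted p = 6.60e-05). Beside Nr5a2, a nuclear receptor whose motif resembles that of ESRRB, a region (chr1:137173865-137174631) had 17.2, 18.2 and 20.0 CPM without and 31.6, 33.1 and 33.8 with Nanog (edgeR adjusted p = 0.000293). In all 4 regions every library with Nanog was above every library without.

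For 17 general pluripotency genes, intervals flanked by 5 of them held 110 tested regions, with 16 higher (14.5%), 8 lower (7.27%) and a median of 0.02. Their share called, 21.8%, was also near that of all gene-desert regions. Mycn, a MYC-family factor, had 20 tested gene-desert regions in the interval from Cyria, 3 higher and 2 lower, with a median of 0.02. In the interval to Ddx1 it had 3, of which 2 were higher. They lie side by side (chr12:13066824-13067153 and chr12:13067360-13067619), at 0.746, 0 and 0.981 CPM and 0.746, 1.12 and 0 CPM without Nanog, against 5.10, 6.13 and 6.75 and 2.92, 3.18 and 4.84 with Nanog. The levels without Nanog rest on a few counts, and the lines did not overlap. Near Jarid2, a Polycomb cofactor, the interval from Cd83 held 41 tested regions, 3 higher and 4 lower.

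Intervals beside developmental transcription factors, 144 genes of which 92 flanked an interval, held 877 tested regions, with 105 higher (12.0%), 110 lower (12.5%) and a median of 0.02. These shares were near the 11.2% and 12.0% of all gene-desert regions. Besides the Nr2f2 regions, the smallest adjusted p lay between Sall1, a zinc finger factor, and Tox3 (chr8:89823505-89824048), with 10.4, 12.1 and 10.6 CPM without and 32.5, 30.5 and 33.0 with Nanog, a log2 fold change of 1.54 ± 0.17 (SE; edgeR adjusted p = 1.70e-07). The region between Rnf144b and Id4, an inhibitor of basic helix-loop-helix factors, in which Gm52029 starts (chr13:47855309-47856400), had 24.2, 18.8 and 24.3 CPM without and 43.9, 64.6 and 56.8 with Nanog, 1.30 ± 0.15 (SE; edgeR adjusted p = 5.69e-07). In both the lines were apart. Signalling genes (95, of which 50 flanked an interval) gave 456 tested regions, 55 higher (12.1%) and 51 lower (11.2%), median -0.05, which was also near all gene-desert regions. Their smallest adjusted p was between Lyplal1 and Tgfb2, a TGF-beta ligand (chr1:186260963-186261902), in a region nearer to Lyplal1 (144.1 kb). It had 30.2, 29.5 and 23.9 CPM without and 75.1, 72.8 and 66.8 with Nanog, a log2 fold change of 1.38 ± 0.13 (SE; edgeR adjusted p = 1.37e-08).

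Intervals beside adhesion and synaptic genes held more decreases than increases. Of 106 such genes, 85 flanked intervals with 1254 tested regions, of which 117 (9.33%) were higher and 170 (13.6%) lower, and the median log2 fold change was -0.14, against 11.2%, 12.0% and -0.06 in all gene-desert regions. The strong region between Fat3, a giant cadherin, and Chordc1 (chr9:17874496-17875382) had 113, 94.0 and 111 CPM without and 50.3, 48.5 and 57.0 with Nanog, a log2 fold change of -1.03 ± 0.11 (SE; edgeR adjusted p = 1.37e-07). Intervals flanked by chemosensory receptor genes held 35 tested regions, 3 higher (8.57%) and 6 lower (17.1%). Their share called, 25.7%, was near the 23.1% of all gene-desert regions. Without library B without Nanog, the adhesion and synaptic counts were 152 and 156, and without library A with Nanog 95 and 107. The lists were not tested as sets.

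The 8 intervals with the most gene-desert regions held 37 to 49 each, and in each most regions were not called. Of these 8, the interval between 1810013L24Rik and Grin2a, an NMDA receptor subunit, held the most, 49 regions or 69.1 per Mb, of which 7 were higher and 2 lower. That density is over the whole interval, with the sequence within 100 kb of its genes, unlike the 11.5 per Mb given above. The strongest there (chr16:9132207-9133978) had 97.7, 103 and 109 CPM without and 108, 104 and 111 with Nanog and was not called (0.05 ± 0.10, SE). The next called region (chr16:9149516-9150267) had 12.3, 12.3 and 10.8 CPM without and 31.8, 39.9 and 33.8 with Nanog, a log2 fold change of 1.59 ± 0.17 (SE; edgeR adjusted p = 1.02e-07). A pair of strong regions farther on (chr16:9266842-9267826 and chr16:9284093-9285274) was lower, at 75.7 ± 8.84 and 84.4 ± 16.0 CPM without and 57.9 ± 3.46 and 56.3 ± 10.5 with Nanog (SD, n = 3). Between Arpp21 and Pdcd6ip 7 were higher and 2 lower of 43, and the strongest region (chr9:113458038-113460323) rose from 40.6, 68.7 and 46.7 to 96.5, 115 and 92.9 CPM. Between Agtr1b and Tbl1xr1, a nuclear receptor corepressor subunit, 2 were higher and 7 lower of 43. From Nmbr to Cited2, a CBP/p300-binding regulator, 6 were higher and 3 lower of 40, and the strongest region, at the start of C330004P14Rik (chr10:15791275-15791963), had 52.6, 45.7 and 57.1 CPM without and 38.3, 35.4 and 40.0 with Nanog.

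**Figure D5:**
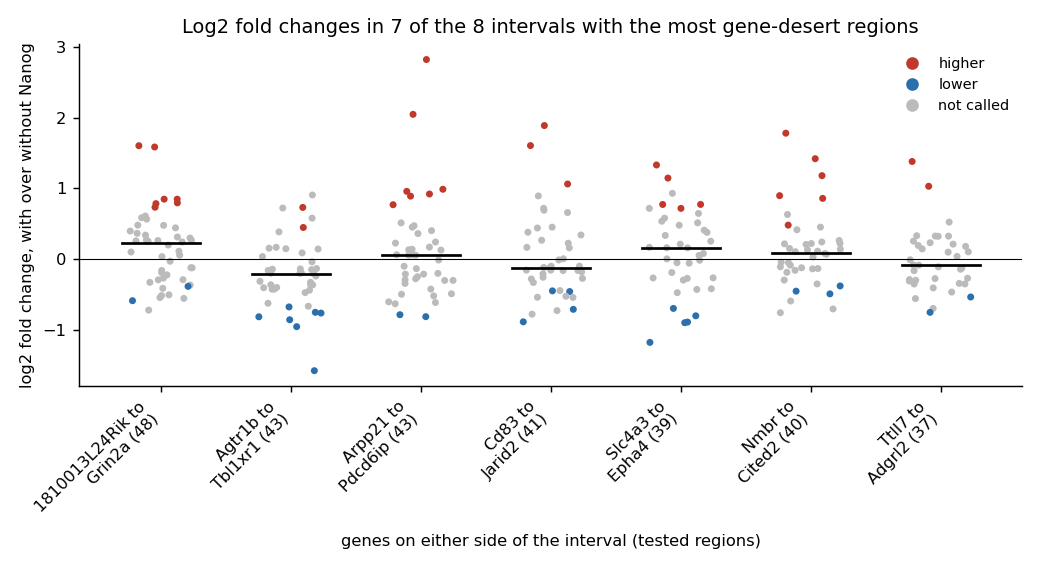
Log2 fold change, with over without Nanog, of each tested region in 7 of the 8 intervals with the most gene-desert regions (x axis, flanking genes with the number tested), coloured by the edgeR call, with a bar at the median. Medians lie between -0.21 and 0.22, and called regions of both directions stand in each of the 7 intervals shown.

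Called neighbours mostly had the same direction at short range. There were 1083 pairs of adjacent tested members within 2 kb, and both were called in 78, of which 37 were both higher, 36 both lower and 5 opposite. Within 10 kb, 165 pairs were both called and 24 of them were opposite, and within 50 kb 301 and 87. Adjacent regions can share fragments and lie in 1 element, so they are not independent. Pairs outside gene deserts were not counted, so whether this is particular to gene deserts was not tested. Of 1175 intervals with a tested member, 285 held both increases and decreases, 227 increases alone, 241 decreases alone and 422 no call.

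Intervals whose calls went 1 way, chosen here after their values were seen, included both kinds beside known developmental genes. Of the 1175 intervals with a tested member, 19 held at least 3 calls, all higher, and 41 at least 3, all lower. Over all gene-desert regions 23.1% were called, 11.2% higher and 12.0% lower, and no interval was tested as a whole. Between Pdgfra and Kit, receptor tyrosine kinases, 3 of 9 were higher, for example chr5:75365651-75366168 at 6.34, 13.5 and 9.61 CPM without and 16.3, 28.1 and 23.8 with Nanog. Between Ncam1, a neural adhesion molecule, and Plet1, 5 of 13 were higher. Between LOC115486419 and Eomes, a T-box factor of mesendoderm and trophoblast, 3 of 4 were lower, the strongest (chr9:118323730-118324316) from 50.7, 30.6 and 56.3 to 19.8, 13.4 and 22.3 CPM. From Slc39a10 to Tmeff2, an interval of 3975 kb, 8 of 24 were lower, at 394.2 to 3727.9 kb from Slc39a10, with a median log2 fold change of -0.39.

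Some called regions clustered in part of an interval only. In the interval up to Sox9, a factor of cartilage and testis whose gene desert is known for long-range enhancers, 4 of 16 tested regions were lower and 1 higher, and 3 of the lower ones were consecutive, 564.7 to 577.5 kb from the gene. The first (chr11:112204540-112204861) had 14.5, 12.6 and 18.6 CPM without and 5.39, 3.42 and 5.35 with Nanog. The others (chr11:112209053-112209342 and chr11:112217362-112217650) fell from 10.9 ± 2.65 to 4.73 ± 0.554 and from 9.04 ± 2.82 to 4.81 ± 1.37 CPM (SD, n = 3). The next region outward (chr11:112180599-112180861), 601.5 kb from Sox9, was higher, at 1.69 ± 0.839 and 4.65 ± 0.635 CPM (SD, n = 3). The interval from Myc to Gsdmc held 30 tested regions, 3 higher and 4 lower. Of these, 13 lay in the lncRNA gene Pvt1, with 3 lower and none higher. That share called was near the 23.1% of all gene-desert regions. The strongest region in Pvt1 (chr15:62091968-62093189), 102.2 kb from Myc, had 132, 102 and 124 CPM without and 88.5, 69.5 and 77.8 with Nanog, a log2 fold change of -0.60 ± 0.11 (SE; edgeR adjusted p = 0.000317). Between Ednra, an endothelin receptor, and Ttc29, 7 of 16 were lower and 1 was higher. The higher one (chr8:78068084-78068788) had 16.0, 8.69 and 9.61 CPM without and 36.2, 38.1 and 35.0 with Nanog, and the next called region was lower (chr8:78081377-78081784), at 20.2 ± 2.27 and 12.5 ± 1.84 CPM (SD, n = 3).

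Regions that overlap a lncRNA start window were called about as often as gene-desert regions in general. Of the 85 tested members over a lncRNA start window, 10 were higher and 11 lower (24.7% called, against 23.1% of all gene-desert regions), with a median log2 fold change of 0.01, and of 1436 with the centre inside a lncRNA gene 184 (12.8%) were higher and 141 (9.82%) lower. Gm46796, whose window holds the extended motif at position -197 from the start, lies in a region (chr3:6106618-6107048) with 29.8, 29.7 and 31.4 CPM without and 21.6, 19.3 and 19.0 with Nanog, a log2 fold change of -0.61 ± 0.15 (SE; edgeR adjusted p = 0.00461). Gm30085, with the extended motif at position -52, lies in a region (chr15:93001213-93002278) with 29.1, 29.2 and 30.8 CPM without and 27.7, 30.1 and 26.8 with Nanog. The libraries overlapped there, and the log2 fold change of -0.08 ± 0.14 (SE) was not called (edgeR adjusted p = 0.756).

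The members farthest from any gene and at or above the median level lay between Celf4 and Pik3c3 on chromosome 18, between Cntnap5b and Cdh20 and between Pcdh7 and G6pd2. The farthest, 1972.2 kb from a gene (chr18:27726448-27726905), had 4.10, 5.89 and 5.49 CPM without and 13.7, 20.2 and 19.0 with Nanog, a log2 fold change of 1.75 ± 0.23 (SE; edgeR adjusted p = 3.89e-06). Another at 1905.9 kb in that interval was also higher, from 6.02 ± 0.433 to 15.2 ± 2.06 CPM (SD, n = 3). The region 1956.8 kb out beside Cdh20, a cadherin (chr1:102810869-102812155), had 54.8, 72.4 and 42.2 CPM without and 56.9, 78.5 and 66.9 with Nanog. Its libraries overlapped and it was not called (0.27 ± 0.15, SE). The other 2 of these 5 regions, at 1872.9 kb between Celf4 and Pik3c3 and at 1815.3 kb beside Pcdh7, were not called either, with log2 fold changes of -0.22 ± 0.27 and -0.28 ± 0.25 (SE).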

How the data were processed

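The deposited table holds read counts per region as whole numbers, not normalised, for the 6 ChIP libraries. The deposited peak lists hold peak positions without a score. The build, mm10, and the tools MACS2, Bowtie2, deepTools, bedtools 2.26.0, bcl2fastq 2.19.1 and SAMtools 1.4.1 are named in the submitters' processing notes. For settings, the read counter and each sample's fixation, nothing is given in the sources used here. Columns carry the letters A, B and C, so each was matched to a line and not to a sample. The 6 input libraries were not used here.

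Regions kept by filterByExpr (84892, with 1309 removed) were TMM-scaled and tested with edgeR 4.0.16 (glmQLFit, then glmQLFTest, under R 4.3.3), with the line as the only term and Benjamini-Hochberg adjustment over all tested regions. CPM was computed with those factors, and the log-CPM that ranks levels used a prior count of 2. Gene-desert regions had median counts of 17, 24 and 32 in the libraries without Nanog, against 39, 52 and 50 in those with it. The gene table has no strand, so distances run from a region's centre to a gene's span. Coordinates are 1-based. The procedure was tested on simulated data.

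The members and gene lists were chosen with earlier results of these data known. The text names part of the regions a rule gives: the 12 largest increases and decreases, the 10 highest levels, the 5 farthest from a gene at or above the median level, the strongest in each of the 8 fullest intervals, and the 4 smallest adjusted p per gene list. Motifs in whole regions were planned and not analysed, as no genome was used here. Alternatives were other scalings and filters, DESeq2 1.42.0, limma-voom of limma 3.58.1, a replicate block, thinning, a loess offset, leaving out each library and other definitions of a gene desert. Leaving out 3 multi-copy or repeat-like regions was added after seeing the data. Of the 8 fullest intervals, 1 is not reported here.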

Additional observations from a re-analysis of the deposited data

How the results depend on the processing

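Other scalings, no count filter and limma-voom kept the counts of higher and lower regions within 1.5 times of 943 and 1012. By DESeq2 they were 564 and 657. Requiring 50 counts on average left 3057 regions, of which 544 and 647 were called, and libraries thinned to equal totals gave 603 and 588. With a single library left out, increases numbered 617 to 1142 and decreases 599 to 983, lowest without library B with Nanog and library A with Nanog. Gene deserts beyond 50 kb held 1508 and 1616, beyond 200 kb 504 and 581, and beyond 100 kb of any gene, noncoding included, 158 and 206. These last definitions change the number of regions. The letters were not treated as pairs (correlations of same-letter deviations 0.083, 0.223 and 0.128), though every library correlated best with its own letter (other letters -0.159 to 0.045), a hint from the data and not from the design, and a replicate block by letter gave 1185 higher and 1298 lower. The median log2 fold change stayed at or below -0.006 in every alternative run. The difference in the share of counts ran from -0.351 to 0.032 with 1 library left out. Of 55 named regions that were called, 50 kept their call in every alternative. The loess offset turned the sign of 4 named regions, to 0.004 between Esp15 and Esp38, 0.125 at the nearer Sox2 region, 0.028 between Spring1 and Med13l and 0.051 between Ttll7 and Adgrl2, of which the first alone had been called. The call at C330004P14Rik was lost in 3 alternatives. The causes were not tested. Without Nanog the median region had 17 to 32 counts, so small changes at weak regions were not detectable at this depth.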

Other observations

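Intervals that hold the variable segments of lymphocyte receptor genes also held ESRRB regions by the rule, because those segments are not annotated as protein-coding genes. The interval from Adam6a to Zfp386, with the immunoglobulin heavy chain segments, had 17 tested regions, 6 lower and none higher, with a median log2 fold change of -0.52. That from Gm36448 to Dad1, with T cell receptor alpha segments, had 10, of which 3 were higher and none lower. All intervals with immunoglobulin or T cell receptor segments held 67 tested regions, 3 higher and 8 lower. Their share called, 16.4%, was below the 23.1% of all gene-desert regions, and the difference was not tested.

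By chromosome, the share of gene-desert regions called ran from 18.8% of 504 on chromosome 2 to 28.1% of 96 on chromosome 19, beside 22.1% of 271 on the X chromosome. At a locus near the start of chromosome 18, before Vmn1r238, a vomeronasal receptor gene, a strong region (chr18:3004142-3005070) had 125, 94.5 and 82.2 CPM without and 59.1, 54.7 and 58.5 with Nanog. Its log2 fold change of -0.79 ± 0.12 (SE; edgeR adjusted p = 3.22e-05) lay between those of the strong chromosome 2 pair and the Sox2 region. Its level without Nanog fell from library A to C, as in that pair (470, 354 and 246 CPM at chr2:98666424-98667157). The region was not among the 3 multi-copy or repeat-like regions left out above, and whether its signal is repeat-like was not tested.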
